A study of Mus musculus with 4 samples.

Results

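The miRNAs described here are the mature products of miR-223 and miR-142, a pair of hairpins made almost entirely by blood-forming cells. They are mmu-miR-223-3p, mmu-miR-223-5p, mmu-miR-142a-3p, mmu-miR-142a-5p and mmu-miR-142b, written below without the mouse prefix. They were chosen by name, and all 5 were among the 1809 miRNAs listed in every library. They were measured in vesicle preparations from the plasma of C57BL/6 mice that were wild type (WT) or gp49B-/- (gp49B KO), at day 21 after an intravenous dose of LLC cells, a mouse lung carcinoma line. gp49B is an inhibitory receptor of myeloid cells. All mice of both groups carried the tumour, and no tumour-free mice were analysed here. Each genotype had 2 libraries, numbered pool 1 and pool 2. A WT library mixed 3 plasma samples and a gp49B KO library 4. The genotype labels were not checked against gp49B mRNA, which was not analysed here. Age was not given in the labels. Differences between libraries of a genotype thus show the spread between pools, and the spread between single mice was not measured.

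An miRNA hairpin is cut into a 5p and a 3p arm, one of which is usually kept in the Argonaute protein and used to silence mRNAs that match its seed, bases 2 to 8. miR-223 is switched on as granulocytes and monocytes mature and is abundant in neutrophils, where its 3p arm restrains activation, and platelets carry it too. miR-142 is found across the leukocyte lineages, and in mice both of its arms are kept. Either miRNA in plasma is commonly read as a trace of white blood cells and platelets. In plasma RNA, fewer vesicles from a cell type and less of its miRNA per vesicle cannot be told apart.

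The mature sequences are shown because the arms and strands compared below differ in them. They are from RefSeq (GRCm38.p6), 5′ to 3′, with the seed in capitals, and all 5 names matched with positions identical to the deposited ones.
miR-223-3p: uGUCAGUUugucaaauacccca
miR-223-5p: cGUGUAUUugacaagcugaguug
miR-142a-3p: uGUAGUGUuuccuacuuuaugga
miR-142a-5p: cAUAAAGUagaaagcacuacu
miR-142b: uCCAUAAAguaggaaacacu
The 5 seeds are all different, and 0 other mature miRNAs among the 1679 names of the RefSeq table share one of them. Each count below thus stands for a seed of its own.

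The hairpins show where the arms lie, with the mature arms in capitals.
Mir223: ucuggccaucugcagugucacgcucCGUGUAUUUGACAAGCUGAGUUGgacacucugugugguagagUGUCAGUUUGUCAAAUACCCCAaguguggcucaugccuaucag
Mir142: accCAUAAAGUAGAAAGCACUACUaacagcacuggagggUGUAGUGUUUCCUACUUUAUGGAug
Mir142b: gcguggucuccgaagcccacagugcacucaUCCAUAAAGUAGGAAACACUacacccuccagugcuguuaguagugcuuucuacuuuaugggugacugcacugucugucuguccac
Mir223 lies on the plus strand of chromosome X from 96242817 to 96242926, within an exon of the long noncoding RNA F630028O10Rik (GENCODE M21). In it miR-223-5p spans 96242842 to 96242864 and miR-223-3p 96242884 to 96242905. Mir142 lies on the plus strand of chromosome 11 from 87756864 to 87756927, in an intron of the long noncoding RNA Mir142hg, with miR-142a-5p at 87756867 to 87756887 and miR-142a-3p at 87756903 to 87756925. Mir142b is read from the minus strand of the same place, 87756841 to 87756955, and miR-142b spans 87756906 to 87756925. All 20 bases of miR-142b are the exact reverse complement of part of miR-142a-3p. Because the hairpin is close to a palindrome, miR-142b also shares a run of 10 bases, CAUAAAGUAG, with miR-142a-5p. Since the sources used here do not say whether reads were counted by strand, the UMIs of this strand and the other cannot be told apart with certainty, and miR-142b is reported as uncertain.

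Molecules were counted by their unique molecular identifiers (UMIs), barcodes added to each RNA before amplification. In what follows, values of a genotype are given in the order pool 1, pool 2. miRNA UMIs totalled 1578508 and 3170254 in the WT libraries, and 1710328 and 3630337 in the KO libraries. The pool 1 libraries were read at 5.29 and 5.70 reads per UMI and pool 2 libraries at 1.69 and 2.11. The most abundant miRNA by its mean share was miR-16-5p, at 24.8 to 35.4% of miRNA UMIs, though in WT pool 2 the hepatocyte miRNA miR-122-5p was above it at 26.6%. KO pool 1 stood apart in skeletal muscle miRNAs: the 5 on the muscle list summed to 3.73% of its miRNA UMIs against 0.408 to 0.691% in the other libraries.

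miR-223-3p, the arm of miR-223 that is kept in myeloid cells, was the most abundant of the 5 in every library. It was counted at 24661 and 22310 UMIs in the WT libraries and at 66021 and 21839 UMIs in the KO libraries. As shares of miRNA UMIs these were 1.56% (exact 95% binomial interval 1.54 to 1.58%) and 0.704% (0.695 to 0.713%) in WT, and 3.86% (3.83 to 3.89%) and 0.602% (0.594 to 0.610%) in KO. KO pool 1 was the highest and KO pool 2 the lowest of the 4, so the KO values enclosed both WT values. By rank among all miRNAs of a library it held places 8 and 16 in WT and places 5 and 18 in KO. These intervals, and those below, cover counting error only.

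miR-223-5p, the other arm, was counted at 484 and 397 UMIs in WT and at 912 and 500 UMIs in KO. Its shares of miRNA UMIs were 0.0307% and 0.0125% for the WT libraries, and 0.0533% and 0.0138% for the KO libraries. KO pool 1 was again the highest, and KO pool 2 lay between the WT libraries, within counting error of the lower one.

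miR-142a-3p, a leukocyte miRNA with its own seed, had 9226 and 13538 UMIs in WT, and 11767 and 18433 UMIs in KO. Its shares of 0.584% (0.573 to 0.596%) and 0.427% (0.420 to 0.434%) in WT, and of 0.688% (0.676 to 0.700%) and 0.508% (0.5005 to 0.515%) in KO, varied least among the 5 miRNAs. The KO library was higher than the WT library in each pool number, and the groups overlapped because both pool 1 libraries lay above both pool 2 libraries. It ranked from place 23 to 27 in the 4 libraries.

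miR-142a-5p had 458 and 437 UMIs in WT and 545 and 615 UMIs in KO. These were 0.0290% and 0.0138% of miRNA UMIs in WT, and 0.0319% and 0.0169% in KO. It followed the same order of libraries as miR-142a-3p.

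miR-142b, the minus-strand product, was the least abundant, with 181 and 52 UMIs in WT and 136 and 67 UMIs in KO. Its shares were 0.0115% and 0.00164% for the WT libraries, and 0.00795% and 0.00185% for the KO libraries. Pool 1 libraries exceeded pool 2 libraries by 6.99 times in WT and 4.31 times in KO, the widest gap between pool numbers in WT among the 5 miRNAs. For miR-223-3p that gap was 2.22 times in WT and 6.42 times in KO, and for miR-142a-3p 1.37 and 1.35 times.

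**Figure D1:**
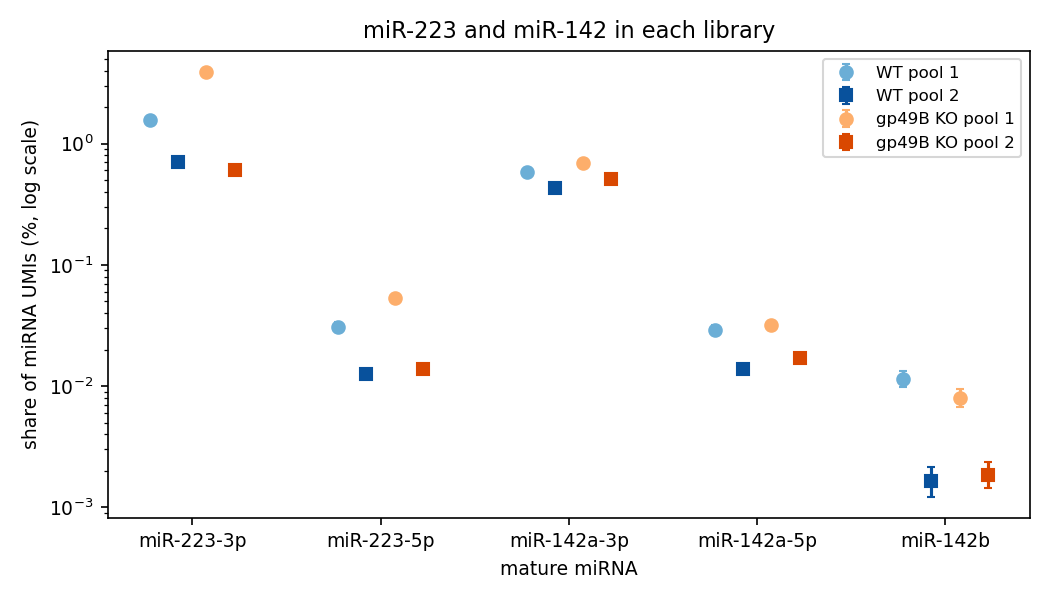
Share of miRNA UMIs (percent, log scale) of the 5 miRNAs in each library; circles are pool 1, squares pool 2, blue WT and orange gp49B KO, with exact 95% binomial intervals. miR-223-3p runs from 0.602% in KO pool 2 to 3.86% in KO pool 1, while miR-142a-3p stays between 0.427 and 0.688%.

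In order of level, miR-223-3p came before miR-142a-3p in all 4 libraries, with intervals that did not meet. The rarer arms of the hairpins were close. miR-223-5p had 1.06 times the UMIs of miR-142a-5p in WT pool 1 (0.928 to 1.20) and 0.908 times in WT pool 2 (0.791 to 1.04). In KO it had 1.67 times (1.503 to 1.86) and 0.813 times (0.721 to 0.916). Only in the KO libraries did that ratio leave 1 beyond counting error, and in opposite directions. miR-142b was last in each library.

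The comparison of genotypes asks whether loss of gp49B changes these miRNAs in tumour-bearing mice. 0 of the 5 passed edgeR's quasi-likelihood test over all 1797 miRNAs tested (Benjamini-Hochberg adjusted p under 0.05), where 0% of all miRNAs passed, as with DESeq2 and limma-voom. At an unadjusted p under 0.05 edgeR counted 32 miRNAs, 1.78% of those tested, DESeq2 28 and limma-voom 27, and the edgeR p was 0.410 or more for each of the 5. Fitted values were higher in KO for 4 of the 5, and for 851 of the 1797 miRNAs tested. The median log2 fold change was 0.16 for the 5, against -0.03 over all miRNAs tested. Without KO pool 1, 3 of the 5 were higher and the median was 0.03.

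In CPM, counts scaled to a common library size, after TMM scaling, which sets libraries level on the bulk of their miRNAs, miR-223-3p was at 9216 and 12264 in WT pools 1 and 2 and at 25702 and 8798 in KO pools 1 and 2. The group means were 10740 ± 2155 in WT and 17250 ± 11953 in KO (SD, n = 2 each). The log2 fold change was 0.68 (SE 0.91), with an edgeR adjusted p of 0.99995. The difference between the means was smaller than the SD of the KO pair, and without KO pool 1 the log2 fold change was -0.27.

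miR-223-5p was at 181 and 218 CPM in WT and 355 and 201 CPM in KO, for a log2 fold change of 0.48 (SE 0.56). It was the only one of the 5 whose estimate kept its sign without each library in turn, at 0.03 without KO pool 1. The edgeR adjusted p was 0.99995 for this and for the other 3 miRNAs.

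The miR-142a arms had estimates nearer to 0. miR-142a-3p was at 3448 and 7442 CPM in WT and 4581 and 7426 CPM in KO, a log2 fold change of 0.14 (SE 0.80). The log2 fold change was 0.16 (SE 0.53) for miR-142a-5p, at 171 and 240.2 CPM in WT and 212 and 248 CPM in KO. Both arms were higher in pool 2 by TMM-scaled CPM and higher in pool 1 by share of miRNA UMIs, so the order of the pool numbers depended on the scaling. In WT the same held for both arms of miR-223.

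For miR-142b the log2 fold change was -0.27 (SE 0.56), from 67.6 and 28.6 CPM in WT and 52.9 and 27.0 CPM in KO. Both pool 1 libraries lay above both pool 2 libraries on this scale too.

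In TMM-scaled CPM, 0 of the 5 had both KO values on one side of both WT values, where 21.1% of all miRNAs tested did (9.52% higher in KO and 11.6% lower). The same held for shares of miRNA UMIs, with 0 of 5 against 5.4% (3.28% higher and 2.11% lower). The two-sided exact permutation p of the shares was 0.667 or 1 for each of the 5 (5 comparisons), and the smallest that 2 against 2 libraries can give is 0.333.

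Within pool numbers the genotypes were compared library to library, which has no replicate. In pool 1, KO was above WT for 4 of the 5 miRNAs, against 49.3% of all miRNAs, and in pool 2 for 1 of the 5, against 48%. Among miRNAs with 100 or more UMIs on average, to which all 5 belong, those shares were 62.5% and 46%. With total UMIs in place of TMM these counts were 4 in each pool number. That scaling lowers every pool 1 ratio and raises every pool 2 ratio, by a common factor within a pool number. The share of all miRNAs above 1 was not counted with it. The KO over WT ratio of miR-223-3p was 2.79 in pool 1, with an exact 95% interval of 2.75 to 2.83, and 0.717 in pool 2 (0.704 to 0.731). With TMM it was the only one of the 5 to reach 2-fold, in pool 1, as 2.64% of all miRNAs did there and 4.1% in pool 2. A ratio above 1 in pool 1 with one below 1 in pool 2 was found for 3 of the 5 (miR-223-3p, miR-223-5p and miR-142a-3p, the last at 0.998 in pool 2) and for 24.8% of all miRNAs. Scaled on total miRNA UMIs it was found for 1 of the 5, miR-223-3p, at 2.47 and 0.855. miR-223-5p in pool 1 was at 2.01 with RLE factors and at 2.32 when scaled on the red blood cell list.

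For miR-223-5p the ratio came to 1.96 in pool 1 (1.76 to 2.20) and 0.923 in pool 2 (0.807 to 1.06). For miR-142a-3p the ratios were 1.33 (1.29 to 1.37) and 0.998 (0.976 to 1.02). Ratios of miR-142a-5p were 1.24 (1.09 to 1.41) and 1.03 (0.911 to 1.17), and those of miR-142b 0.783 (0.622 to 0.983) and 0.944 (0.648 to 1.38). In pool 1 the 5 ratios thus ran in order from miR-223-3p through miR-223-5p and the miR-142a arms to miR-142b, and in pool 2 only that of miR-223-3p left 1 beyond counting error. On total UMIs the pool 2 ratios of both miR-142a arms also did, at 1.19 (1.16 to 1.22) for miR-142a-3p and 1.23 (1.09 to 1.39) for miR-142a-5p. On that scale their pool 1 ratios were 1.18 (1.15 to 1.21) for miR-142a-3p and 1.10 (0.968 to 1.25) for miR-142a-5p. The last was within counting error of 1. The authors' deposited log2 values gave 2.79 and 0.730 for miR-223-3p and 1.33 and 1.015 for miR-142a-3p.

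**Figure D2:**
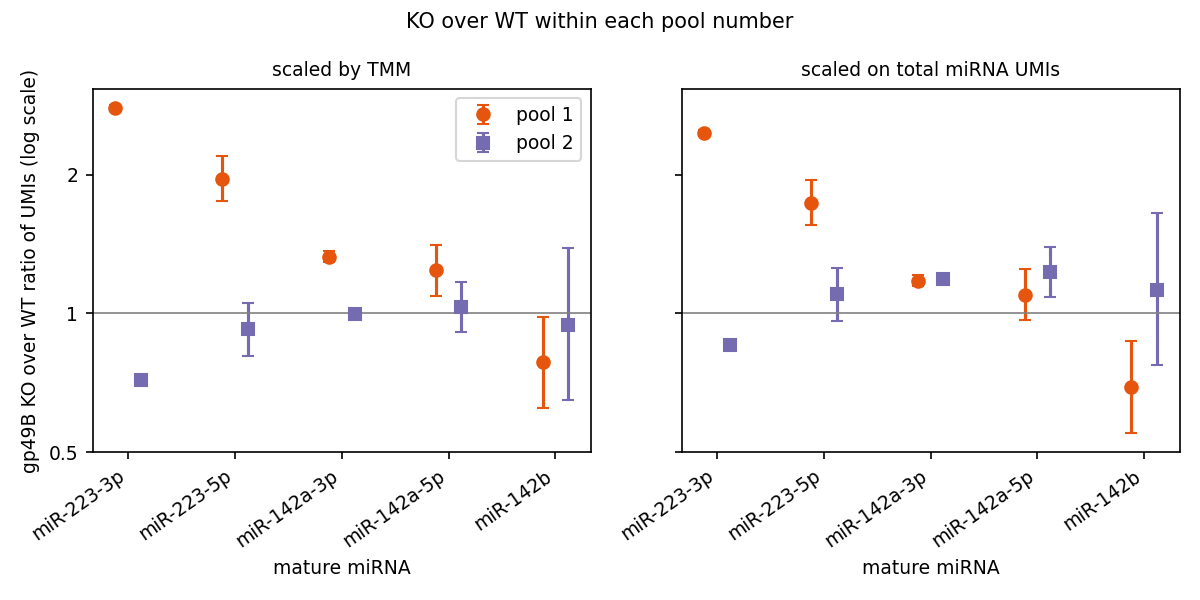
gp49B KO over WT ratio of UMIs (log scale) for the 5 miRNAs in pool 1 (circles) and pool 2 (squares), scaled by TMM on the left and on total miRNA UMIs on the right, with exact 95% intervals for counting error. miR-223-3p lies at 2.79 in pool 1 and 0.717 in pool 2 with TMM, and the miR-142a arms lie nearer to 1.

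In the set of 352 abundant miRNAs, those averaging at least 100 UMIs, 10 had a higher pool 1 ratio than miR-223-3p and 29 a lower pool 2 ratio. In pool 1, 7.67% of these 352 reached 2-fold, and in pool 2 1.42%. The gap between the pool numbers was 1.96 on the log2 scale for miR-223-3p, and 8 of the 352, itself included, had a gap as large in that direction. For miR-223-5p the gap was 1.09, as large in 29 of the 352, and for miR-142a-3p 0.41, as large in 127. Of the 10 with higher pool 1 ratios, 4 were on the muscle list: miR-206-3p at 20.8, miR-1a-3p at 7.94, miR-133a-3p at 7.02 and miR-133b-3p at 6.34. Other miR-1 products among the 10, not on that list, were miR-1b-5p at 7.93 and miR-1a-1-5p at 5.39. Together with the 4 these had the highest pool 1 ratios of the 10. Of the rest, miR-146b-5p at 3.43 was on the list of leukocyte miRNAs, and miR-199a-5p at 2.87 on that of platelet and endothelial miRNAs. All miRNAs of the muscle list were counted above 0 in every library. The part of muscle RNA, or of KO pool 1 as a library, in the miR-223-3p result was not tested.

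**Figure D3:**
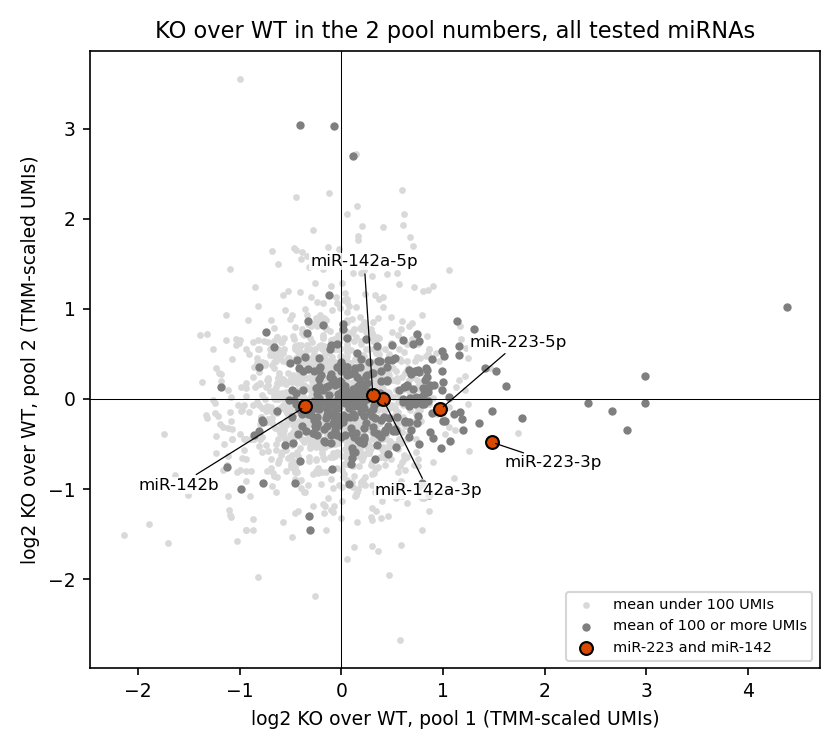
log2 KO over WT ratio in pool 1 (x) and pool 2 (y) of TMM-scaled UMIs for 1780 miRNAs counted above 0 in all libraries, light grey under and dark grey from a mean of 100 UMIs, with the 5 miRNAs in orange. miR-223-3p sits to the right and below 0, at a ratio of 2.79 in pool 1 and 0.717 in pool 2, and the 2 miR-142a arms sit near the centre.

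Ratios between miRNAs of the same library need no scaling between libraries. There were 50.95 UMIs of miR-223-3p for each of miR-223-5p in WT pool 1 (exact 95% interval 46.6 to 55.9) and 56.2 in WT pool 2 (50.9 to 62.2). In KO there were 72.4 (67.8 to 77.4) and 43.7 (39.97 to 47.8). The arm ratio of miR-223 was thus highest in KO pool 1 and lowest in KO pool 2, on either side of the WT values. The two-sided exact permutation p of the difference between genotypes was 1. In pool 1 the ratio rose 0.51 on the log2 scale from WT to KO, a change reached by 7 of 28 hairpins with at least 100 UMIs of each arm in every library. In pool 2 the change was -0.36, a size reached by 11 of the 28.

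For miR-142a the arm ratio was 20.1 (18.3 to 22.2) and 30.98 (28.2 to 34.2) in WT, and 21.6 (19.8 to 23.6) and 29.97 (27.7 to 32.5) in KO. Values of the same pool number lay within counting error of each other, and the pool 2 values lay above the pool 1 values. The log2 difference of KO from WT was 0.10 in pool 1 and -0.05 in pool 2, and 24 and 27 of the 28 hairpins had one at least as large (exact permutation p of the genotype difference 1). Between WT pools it was 0.62, under the median size of 0.79 over the 28 hairpins, and 16 of them had one as large.

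miR-223-3p had 2.67 and 1.65 times the UMIs of miR-142a-3p in WT, and 5.61 and 1.18 times in KO. KO over WT this came to 2.10 in pool 1 and 0.719 in pool 2. Against miR-150-5p, a miRNA of mature lymphocytes, the corresponding values were 2.13 and 0.840, and against miR-146a-5p, which inflammatory signals induce, 1.25 and 0.510. Against miR-126a-3p, a miRNA of endothelium and platelets, they were 1.49 and 0.969, and against the red cell miRNA miR-451a 3.28 and 0.825. The pool 2 value against miR-126a-3p was within counting error of 1. The exact permutation p over all libraries was 1 for each of these ratios. Over the whole lists, miR-223-3p was higher in KO in pool 1 relative to 10 of 11 leukocyte, 7 of 7 red blood cell, 6 of 7 platelet and endothelial, 5 of 5 hepatocyte and 1 of 5 muscle miRNAs. The leukocyte and platelet exceptions were miR-146b-5p and miR-199a-5p. In pool 2 it was lower in KO relative to 11 of 11, 7 of 7, 7 of 7, 4 of 5 and 5 of 5 in the same order, with miR-122-5p as the exception.

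**Figure D4:**
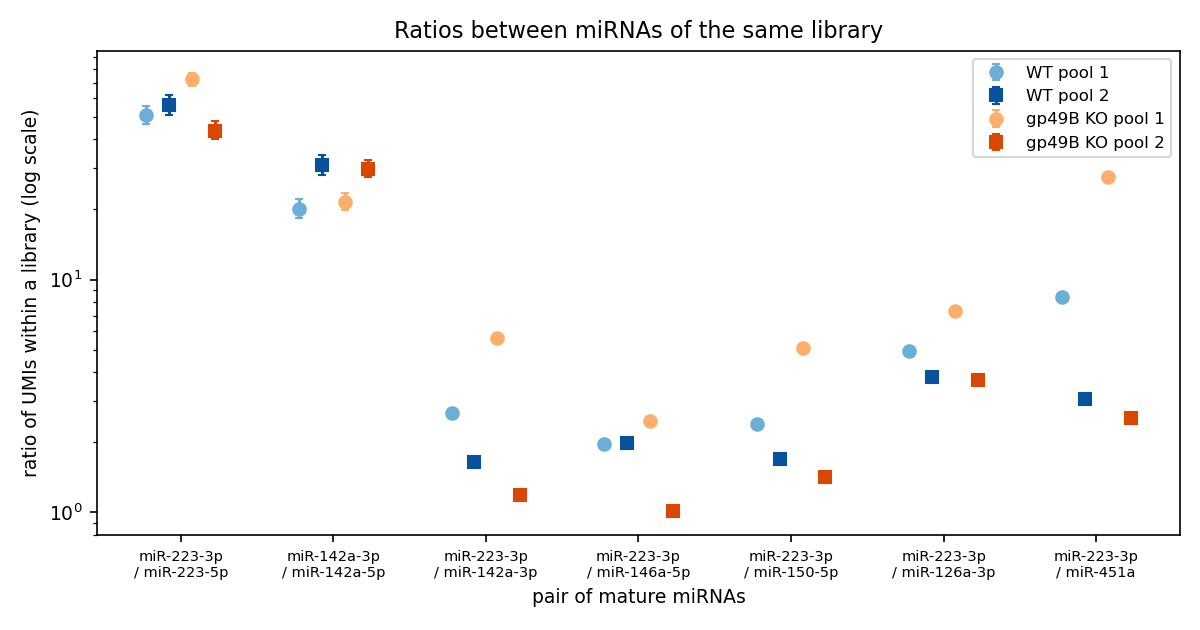
Ratios of UMIs between miRNAs of the same library (log scale), symbols as in the plot of shares, with exact 95% intervals for counting error. KO pool 1 is highest for each ratio that has miR-223-3p on top, and the miR-142a arms separate by pool number at about 20.1 to 21.6 against 29.97 to 30.98.

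miR-142a-3p was set against 5 leukocyte miRNAs. Its ratio to miR-150-5p was 0.893 and 1.02 in WT and 0.907 and 1.20 in KO, or 1.02 and 1.17 KO over WT in pools 1 and 2. Its ratio to miR-21a-5p, a miRNA found in many cell types and raised in inflammation, was 0.971 and 0.864 KO over WT. That to miR-146a-5p was 0.596 and 0.709, lower in KO in both, and that to miR-155-5p 0.677 and 1.07. The exact permutation p was 0.667 for each of these 4. Its ratio to miR-181a-5p was 16.6 and 16.2 in WT and 11.1 and 15.1 in KO. Both KO values thus lay below both WT values, with the smallest exact permutation p possible, 0.333. Relative to miR-16-5p, the most abundant miRNA, both KO values lay above both WT values instead, also with an exact permutation p of 0.333. There miR-142a-3p amounted to 1.65% and 1.72% of the miR-16-5p UMIs in WT, and 2.34% and 1.78% in KO. Its ratios to miR-126a-3p (0.708 and 1.35 KO over WT) and to miR-451a (1.56 and 1.15) overlapped between the genotypes.

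A list of 11 other miRNAs of leukocytes took 4.81% and 2.90% of miRNA UMIs in WT, and 6.30% and 3.48% in KO. 0 of the 11 passed the edgeR test. Estimates were higher in KO for 10 of the 11, and for 851 of all 1797 miRNAs tested. The median log2 fold change of the 11 was 0.31, against -0.03 over all miRNAs. In pool 1 all 11 were higher in KO and in pool 2 6 were, with median ratios of 1.44 and 1.02. All 11 averaged at least 100 UMIs, and of the 352 such miRNAs 62.5% were higher in KO in pool 1 and 46% in pool 2. On total UMIs, which lower every pool 1 ratio and raise every pool 2 ratio, 10 and 10 were higher. Of the 4 most abundant, miR-21a-5p had ratios of 1.37 and 1.16, miR-146a-5p 2.23 and 1.41, miR-342-3p, a lymphocyte and monocyte miRNA, 1.28 and 0.763, and miR-29a-3p 1.17 and 0.933. Like miR-223-3p, miR-342-3p was thus above 1 in pool 1 and below 1 in pool 2, also on total UMIs.

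Lists of other sources moved in their own ways, and 0 of their members passed the edgeR test. With TMM, 49.3% of all miRNAs were higher in KO in pool 1 and 48% in pool 2. Among miRNAs averaging at least 100 UMIs these were 62.5% and 46%. The 7 platelet and endothelial miRNAs, miR-199a-3p being counted with miR-199b-3p, made up 2.63% and 1.07% of miRNA UMIs in WT, and 3.88% and 1.59% of them in KO, with 7 higher in KO in pool 1 and 5 in pool 2. Most abundant there were miR-199a-3p/miR-199b-3p (ratios 1.69 and 1.57), miR-24-3p (1.69 and 1.25), miR-126a-3p (1.88 and 0.740) and miR-126a-5p (1.65 and 0.959). Of the 7 red blood cell miRNAs, at 11.4% and 18.8% in WT and 8.56% and 18.2% in KO, 0 were higher in KO in pool 1 and 1 in pool 2. On total UMIs, 5 of the 7 were higher in KO in pool 2. The most abundant of them were miR-486b-5p (ratios 0.844 and 0.805), miR-486a-5p (0.847 and 0.827), miR-486a-3p (0.858 and 0.979) and miR-486b-3p (0.857 and 0.925). miR-486a-3p and miR-486b-3p lie opposite miR-486b-5p and miR-486a-5p on the other strand. As with miR-142b and miR-142a-3p, each had fewer reads per UMI than its partner in every library. The 5 hepatocyte miRNAs, at 11.4% and 27.3% in WT and 7.48% and 20.3% in KO, were all lower in KO in both with TMM. On total UMIs, 2 of these 5 were higher in KO in pool 2. The share over all miRNAs was not counted on that scale for any list. Their most abundant were miR-122-5p (ratios 0.755 and 0.620), miR-192-5p (0.552 and 0.759), miR-194-5p (0.787 and 0.783) and miR-802-5p (0.598 and 0.909). Every miRNA of these lists was counted above 0 in all libraries. Their part in the differences of miR-223 and miR-142 was not tested.

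Profiles were compared over the 4 libraries by the Euclidean distance between centred log2 CPM, among 347 other miRNAs averaging at least 100 UMIs. Nearest to miR-223-3p were miR-429-3p (distance 0.56), miR-218-5p (0.71) and miR-669a-3p/miR-669o-3p (0.74), against a median of 1.47. Within the group described here, miR-223-5p was at 0.53, nearer than any of these, and miR-142a-3p at 1.69. Nearest to miR-142a-3p were miR-30e-5p (0.16), miR-501-3p (0.17) and miR-186-5p (0.20), against a median of 0.84, with miR-142a-5p at 0.55 and miR-142b at 2.06. The distance between arms was thus 0.53 for miR-223 and 0.55 for miR-142a, but against different medians. The 3 miRNAs named for miR-142a-3p were all nearer to it than its own 5p arm, unlike for miR-223-3p. miR-142b was farther from miR-142a-3p than the median miRNA. With 4 libraries such distances describe these libraries alone.

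miR-142b stood apart in how often each molecule was read. In WT it had 459 reads for 181 UMIs and 73 reads for 52, and in KO 303 reads for 136 UMIs and 95 reads for 67. These are 2.54 and 1.40 reads per UMI in WT and 2.23 and 1.42 in KO. The median over miRNAs with at least 30 UMIs was 5.56 and 1.72 in WT and 5.93 and 2.19 in KO. Among those miRNAs, 17 of 1323 and 33 of 937 were lower in the WT libraries, and 16 of 1237 and 12 of 1167 in the KO libraries. miR-142a-3p, from the opposite strand, had 6.45 and 1.74 reads per UMI in WT and 6.72 and 2.23 in KO, above the median in each library. miR-142b amounted to 1.96% and 0.384% of miR-142a-3p in WT, and 1.16% and 0.363% in KO, so it did not keep a fixed share of it.

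**Figure D5:**
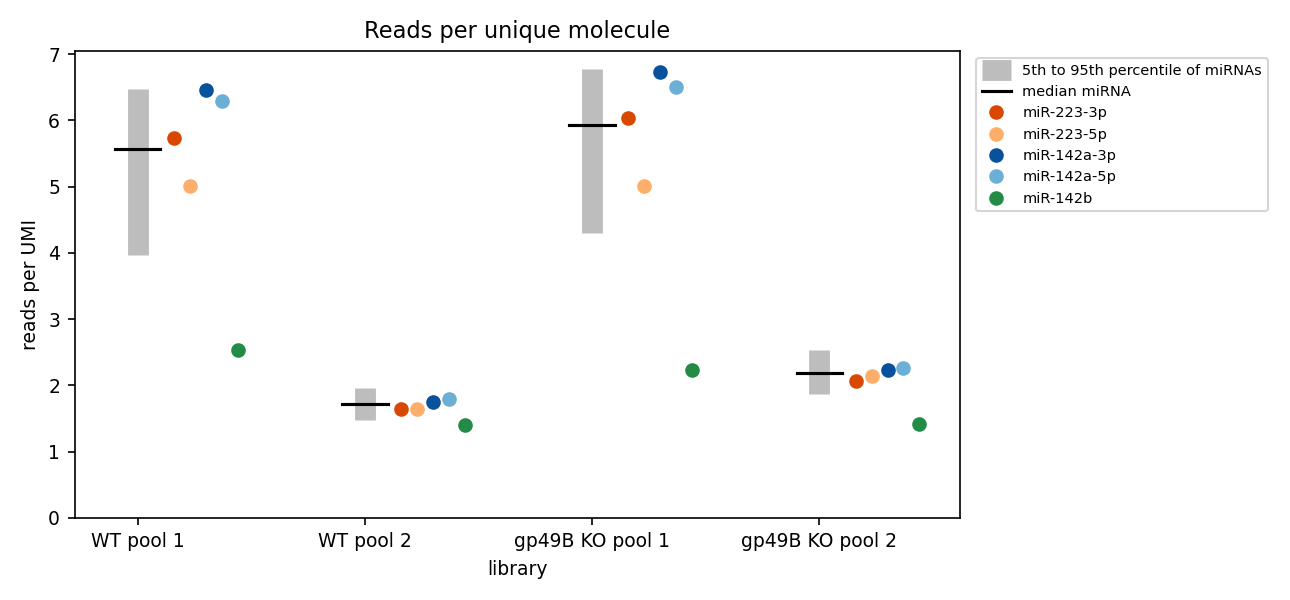
Reads per UMI in each library for the 5 miRNAs (points), with the median (black line) and the 5th to 95th percentiles (grey bar) of all miRNAs with at least 30 UMIs there. miR-142b is under the grey bar in every library, and the miR-142a arms are above the median in every library.

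miR-223-5p also had fewer reads per UMI than its other arm in pool 1, at 5.00 against 5.73 in WT and 5.02 against 6.03 in KO. In pool 2 the arms had 1.64 each in WT, and 2.14 for the 5p arm against 2.06 for the 3p arm in KO. With read counts in place of UMIs the log2 fold change over all libraries was 0.73 for miR-223-3p, 0.45 for miR-223-5p, 0.16 for miR-142a-3p, 0.15 for miR-142a-5p and -0.53 for miR-142b. The last was the only one of the 5 to move by more than 0.2 from its UMI estimate.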

How the data were processed

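Exosomes had been precipitated from EDTA plasma with ExoQuick and libraries made with the QIAseq miRNA kit, per the labels' protocols. The deposited UMI and read counts are whole numbers with no normalization. The authors also deposited log2 values, which equal log2 of the UMI count plus a constant per library (-0.0276 and 0.215 in WT pools 1 and 2, 0.0296 and -0.209 in the KO ones). The 2 pool numbers have separate feature lists (1863 and 1816 miRNAs), and the smallest count above 0 was 10 in pool 1. The column names of the pool 2 sample tables depart from their labels, so each was placed by its label, and all its UMI counts equalled those of that library in the table of all libraries. The submitters' processing notes name FastQC 0.11.9 and the build GRCm38 (mm10). The aligner, the counter and the use of strand are not given here by any source.

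The 1809 shared miRNAs were fitted with edgeR 4.0.16 (R 4.3.3): the quasi-likelihood F-test (two-sided) after filterByExpr and TMM, without a block and with 2 residual degrees of freedom. The WT libraries had TMM factors of 1.70 and 0.574, and the KO libraries of 1.503 and 0.684. The script was tested on simulated counts. limma 3.58.1, DESeq2 1.42.0, other scalings, filters, read counts, a block and each library left out were alternatives. Intervals are exact (binomial, or conditional for ratios). Nothing says which libraries came from separate mice, so p-values measure the spread between these pools. The edgeR fit estimates that spread in part from all miRNAs tested, and not from each miRNA alone. Named were the 5 miRNAs, the 3 nearest profiles of each of miR-223-3p and miR-142a-3p, the 4 most abundant of each list, miRNAs sharing a seed, and the most abundant miRNA. The reference miRNAs of the ratios, miR-142b's antisense comparison and the miRNAs ranked by pool 1 ratio were chosen after values were seen. The members and lists, from textbook knowledge, were chosen with earlier results of these data known.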

Additional observations from a re-analysis of the deposited data

Results flagged for a closer look

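The KO over WT ratio of miR-223-3p lay on opposite sides of 1 in the pool numbers, 2.79 in pool 1 and 0.717 in pool 2, each with a counting interval clear of 1. With 1 library per genotype and pool number, this difference between the pool numbers was not tested. Groups of 2 libraries are too small to look for a single sample far from the others.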

How the results depend on the processing

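None of the 5 miRNAs was called under any of 15 alternatives, with adjusted p from 0.901 to 0.99996. The number of miRNAs called over the whole table was 0 in the comparison as reported, 0 to 3 with each library left out (2 when WT pool 2 was left out, 3 when KO pool 2 was), and 5 with total UMIs and pool number as a block, a setting chosen after seeing the data. With a library left out its genotype has 1 library, which is assumed to vary like the others. Log2 fold changes changed sign only with a library left out. miR-223-3p then ran from -0.27 (KO pool 1 left out) to 1.26, and miR-142a-3p from -0.29 (WT pool 1 left out) to 0.80, with -0.25 when KO pool 2 was left out. miR-142a-5p ran from -0.040 (WT pool 1 left out) to 0.43, and miR-142b from -0.83 to 0.51 (WT pool 1 left out), with 0.13 when KO pool 2 was. miR-223-5p stayed above 0 in all 15, from 0.03 to 0.83.

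The labels do not say what a pool number shares, but same-numbered libraries were alike in several ways. They had the same feature list, and 5.29 and 5.70 reads per UMI in pool 1 against 1.69 and 2.11 in pool 2. Their deviations from the group means correlated at 0.527 across miRNAs. The main fit had no block, so this likeness stayed in its spread. With pool number as a block 0 miRNAs were called, 78 had an unadjusted p under 0.05, and the log2 fold changes were 0.50 (SE 0.52) for miR-223-3p, 0.43 for miR-223-5p, 0.20 (SE 0.28) for miR-142a-3p, 0.18 for miR-142a-5p and -0.24 for miR-142b, with 1 residual degree of freedom.

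For pool 1 the number of the 5 with a ratio above 1 was 4 under each of 8 alternative scalings or counts. For pool 2 it was 1 as reported, 2 with RLE factors, upper quartile factors, read counts or the authors' log2 values, and 4 with total UMIs or scaling on the red blood cell list (the latter chosen after seeing the data, like medians of ratios over miRNAs with 100 or more UMIs, which gave 1). Over these settings miR-223-3p ran from 2.35 to 3.30 in pool 1 and from 0.707 to 0.883 in pool 2, and miR-223-5p from 1.66 to 2.32 and from 0.914 to 1.14. In the same order, miR-142a-3p ran from 1.12 to 1.57 and from 0.989 to 1.23. miR-142a-5p ran from 1.05 to 1.47 and from 1.02 to 1.27. The difference in log2 arm ratio of KO from WT was 0.07 for miR-223, from -0.29 to 0.44 with each library left out and below 0 only without KO pool 1. For miR-142a it was 0.03, from -0.28 to 0.34, and below 0 without WT pool 1 (-0.28) or KO pool 2 (-0.21). Shares with other denominators or read counts left 0 of 5 without overlap. The causes were not tested. Depth limits miR-142b most, at 52 UMIs in WT pool 2.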

Other observations

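The low number of reads per UMI of miR-142b had parallels among other miRNAs, looked at after its values were seen. By the deposited positions, 26 pairs of listed miRNAs overlap by at least 15 bases on opposite strands. In 5 of them the more abundant partner had at least 1000 UMIs in every library, and in all 5 the rarer partner had fewer reads per UMI in all 4 libraries. The other 4 rarer partners were miR-126b-5p and miR-126b-3p, opposite the endothelial miR-126a arms, and miR-486a-3p and miR-486b-3p, opposite the red cell miRNAs miR-486b-5p and miR-486a-5p. For miR-486a-3p the values were 1.37 and 1.15 reads per UMI in WT and 1.42 and 1.28 in KO (pool 1 first), against 5.09 and 1.63 in WT and 5.49 and 2.02 in KO for miR-486b-5p. Among the 19 other pairs counted above 0 in every library, the rarer partner had fewer reads per UMI in all libraries in 7. The rarer partner's share of the more abundant one was also higher in both pool 1 libraries than in both pool 2 libraries in all 5 pairs, for example 17.1% and 16.9% against 3.39% and 5.39% for miR-126b-3p over miR-126a-5p. miR-142b was the smallest of the 5 by this share in each library.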
